A study of Mus musculus with 14 samples.

Results

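Myofibroblasts are the contractile, matrix-producing cells that accumulate in a fibrotic kidney, and 10 genes that mark them were followed here through 14 lists of H3K9cr and H3K9ac peaks. The 10 genes were chosen by name, out of 21631 protein-coding genes that RefSeq places on the autosomes and X of mouse GRCm38.p6, and each was described by the bases that peaks covered in a window made of the gene with 10 kb either side. All 10 had a covered base in at least 1 library, as did 16660 protein-coding genes, which served as the background of every comparison.

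The study mapped histone H3 lysine 9 crotonylation (H3K9cr) and acetylation (H3K9ac) by ChIP-seq in whole kidneys of mice, either wild-type (WT) or ACSS2-/-, without obstruction (control) and after unilateral ureteric obstruction (UUO), in which one ureter is tied off so that the kidney behind it becomes fibrotic. ACSS2 makes acyl-CoA from short-chain fatty acids, crotonyl-CoA among them, and the ACSS2-/- mice lacked it in every tissue after CRISPR/Cas9 editing, so that any cell of the kidney could be affected directly. H3K9cr had 2 libraries in each of the 4 groups (WT control, WT UUO, ACSS2-/- control, ACSS2-/- UUO), whereas for H3K9ac 2 libraries were analysed per UUO group and 1 per control group. Both the C57BL/6J and the ACSS2-/- mice were 6 to 8 weeks old, the time after ligation is not given for these libraries in the sources used here, H3K9cr and H3K9ac were read in shared samples, and the labels do not say which other libraries share a mouse, so p-values measure the spread between libraries.

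In kidney, myofibroblasts arise mainly from resident fibroblasts and pericytes, which carry the PDGF receptors Pdgfra and Pdgfrb. Once activated they build stress fibres from smooth muscle actin (Acta2) with the actin-binding protein transgelin (Tagln), and they secrete fibronectin (Fn1), periostin (Postn), tenascin C (Tnc), the collagen-binding proteins SPARC (Sparc) and decorin (Dcn), and lysyl oxidase (Lox), which crosslinks collagen. Acetylation and crotonylation of H3K9 both lie at the starts of active genes and are alternative marks of the same lysine.

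The promoters of the members whose start carried a peak in some libraries and not in others are given first, as the 250 bases before the transcript start in RefSeq (GRCm38.p6), with the strand of the gene. They are ordered by how far H3K9cr libraries after UUO and control libraries differed in having such a peak, and 5 of the 10 members were matched to a promoter, these 4 and Sparc. Capitals mark the letters TATAAA of the TATA box, GGAATG of the TEAD motif and CAGAC of the SMAD motif on either strand, and the AP-1 motif TGANTCA and the CArG box were searched for in the same way and had no exact match in these 4 windows. Near matches were not counted. The Acta2 window holds ccctatatgg and ccttgtttgg, which depart from the CArG form CCWWWWWWGG (W is A or T) by a C or a G among the W. No absence of a CArG box from the Acta2 promoter is therefore read from the search. Postn and Tnc each have a second RefSeq promoter, and the one printed is that of the outermost start. For Acta2 and Pdgfra the transcript starts used, 34255373 and 75152251, lie inside the gene as placed here, whose start is at 34255585 and 75151322. The printed Pdgfra window therefore lies inside the gene, and that of Acta2 spans its start.
Tnc, chr4:64047016-64047265, minus strand: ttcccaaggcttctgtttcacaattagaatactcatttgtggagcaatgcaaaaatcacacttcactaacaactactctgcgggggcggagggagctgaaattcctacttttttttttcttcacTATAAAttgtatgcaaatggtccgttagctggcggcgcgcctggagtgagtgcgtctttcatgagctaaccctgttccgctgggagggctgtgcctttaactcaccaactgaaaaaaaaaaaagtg
Postn, chr3:54359017-54359266, plus strand: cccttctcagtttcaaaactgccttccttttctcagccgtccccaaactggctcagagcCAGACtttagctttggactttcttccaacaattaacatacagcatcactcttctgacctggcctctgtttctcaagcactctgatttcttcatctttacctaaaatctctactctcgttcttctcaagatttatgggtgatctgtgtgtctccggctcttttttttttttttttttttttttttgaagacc
Acta2, chr19:34255374-34255623, minus strand: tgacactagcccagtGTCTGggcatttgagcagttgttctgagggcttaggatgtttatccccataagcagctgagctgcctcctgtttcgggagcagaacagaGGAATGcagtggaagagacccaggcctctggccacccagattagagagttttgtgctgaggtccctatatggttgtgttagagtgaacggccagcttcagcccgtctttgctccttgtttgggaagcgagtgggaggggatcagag
Pdgfra, chr5:75152001-75152250, plus strand: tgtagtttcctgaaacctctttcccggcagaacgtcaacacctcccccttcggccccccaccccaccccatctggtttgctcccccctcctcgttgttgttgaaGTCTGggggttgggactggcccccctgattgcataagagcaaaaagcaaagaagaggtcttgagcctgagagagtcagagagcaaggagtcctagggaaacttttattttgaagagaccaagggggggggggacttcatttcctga
TATAAA stood in 12.4% of the 32851 promoters of this length, GGAATG in 12.6%, CAGAC in 42.2%, TGANTCA in 6.75% and the CArG box in 1.47%, so the matches are a description of the windows and mark no site. Of the 4, the Acta2 promoter was the one that peaks reached. H3K9cr peaks covered all 250 bases in 4 of 4 UUO libraries, whereas in control libraries they covered 250, 60, 0 and 0 bases, and no H3K9ac peak reached a base of it in 6 libraries. The Tnc, Postn and Pdgfra promoters as printed had no covered base in any of the 14 libraries, the peaks of these genes lying just beside them, and the same held for the second promoters of Postn (chr3:54360857-54361106) and Tnc (chr4:64046937-64047186). The second Postn promoter held TATAAA with its first base at -26 from its own start, and the second Tnc promoter shared the TATAAA printed above and held CAGAC on the opposite strand.

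The length of genome that a library's peaks covered set the frame for every comparison. H3K9cr peaks covered 41.7, 44.8, 64.6 and 51.4 Mb in the 4 control libraries and 44.6, 35.0, 39.7 and 29.4 Mb in the 4 UUO libraries. H3K9ac peaks covered 34.2 and 51.1 Mb in the 2 control libraries and 17.7, 21.2, 19.3 and 30.9 Mb after UUO. The deposited lists held between 15988 and 45014 peaks and gave positions without a height or a read number, so the depth of sequencing is unknown, and a gene can gain or lose covered bases with the yield of the library alone. Values were therefore also expressed per Mb covered in the library, called the share below.

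Some labels and lists did not match in number. In 4 of the 14 lists, all of UUO kidneys, the replicate number in the peak names differed from that of the sample label, namely H3K9cr of WT UUO and ACSS2-/- UUO replicate 1 and H3K9ac of both ACSS2-/- UUO libraries. The lists of 6 libraries held no peak on chromosome Y (WT control replicate 1, WT UUO replicate 2 and ACSS2-/- UUO replicate 2 of H3K9cr, and both WT UUO libraries and ACSS2-/- UUO replicate 1 of H3K9ac), the other 8 held from 2 to 14, and the labels give no sex. The part of these differences in the results was not tested beyond leaving libraries out and, for the 2 marks, crossing the replicate numbers in the UUO groups.

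Sparc was the most covered member for its length and Postn the least. Peaks covered 13.3% of the Sparc window on average over the 14 libraries, 7.33% of the Tagln window, 5.30% of Pdgfrb, 4.51% of Pdgfra, 2.97% of Acta2, 2.27% of Lox, 1.15% of Fn1, 0.655% of Dcn, 0.293% of Tnc and 0.122% of Postn. The median of the 10 was 2.62% and the median of the 16660 genes 4.44%. Together the members held 266 peaks of 304 to 5170 bp, which merged into 46 regions, 14 of them seen in 1 library alone and 3 in all 14 libraries. These 3 lay at Sparc, Pdgfra and Pdgfrb.

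**Figure D1:**
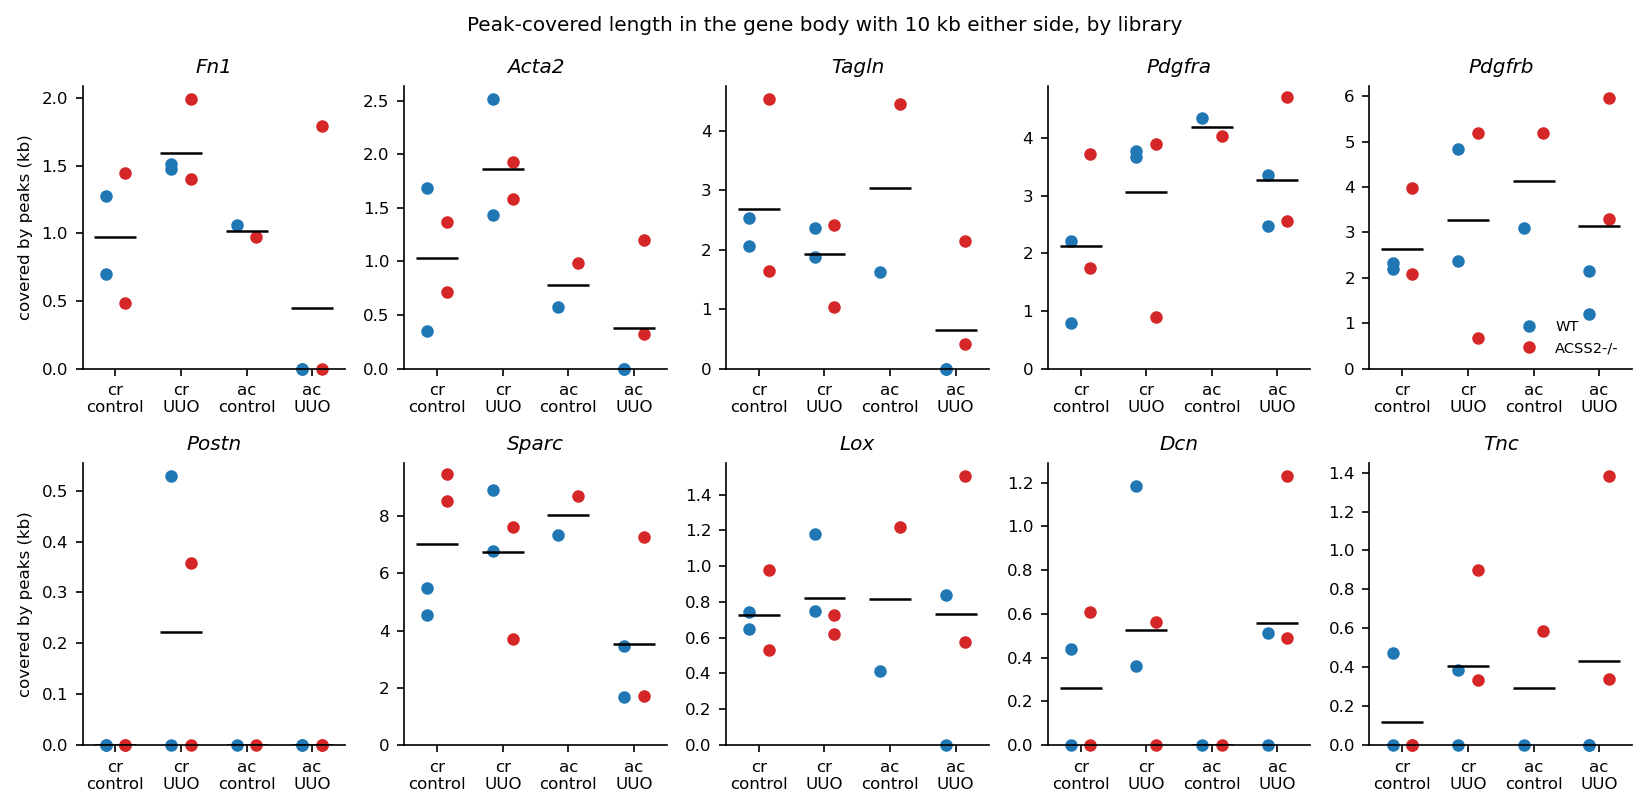
Kilobases covered by peaks in the gene with 10 kb either side, for each of the 10 genes and each of the 14 libraries (blue WT, red ACSS2-/-, points at the same height overlap), with the mean of the libraries as a line; cr is H3K9cr and ac is H3K9ac. Fn1 and Acta2 lie higher in most UUO than control libraries for H3K9cr, and both are at 0 in the 2 WT UUO libraries for H3K9ac.

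UUO was compared with control for H3K9cr over 4 libraries against 4, WT and ACSS2-/- together. The kidneys were read in bulk, so fewer cells of a type and less mark per cell cannot be told apart. The means of the members leaned the other way from those of most genes. The mean was higher after UUO at 8 of 10 members and lower at 2, and the median difference was 276 bp, against a median of -292 bp over all genes tested. By the rule that every UUO library lies above or below every control library, however, 0 of 10 members were higher (2.3% of all genes) and 0 of 10 were lower (17.9% of all genes). At an unadjusted exact permutation p under 0.05 there was no member either, and the smallest adjusted p over all genes was 0.141. With the 4 lists of other number left out, the count of members stayed at 0 in both directions.

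Among the secreted matrix proteins, Fn1 came nearest to a separation. H3K9cr peaks covered 698 and 1271 bp in the 2 WT control libraries, 1442 and 484 bp in ACSS2-/- control, 1477 and 1513 bp in WT UUO and 1988 and 1399 bp in ACSS2-/- UUO. The UUO mean was 1594 bp and the control mean 974 bp (exact two-sided permutation p = 0.0571, Benjamini-Hochberg adjusted p = 0.206). The groups overlapped because 1 control library, ACSS2-/- replicate 1, lay above 1 UUO library, ACSS2-/- replicate 2. Leaving out either of those 2 libraries separated the groups. With the replicate number as a block, UUO was higher in each of the 4 same-numbered pairs (exact sign-flip p = 0.125, the smallest that 4 pairs allow).

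Nearly all of the Fn1 signal was 1 region, chr1:71652348-71654237, across the higher-coordinate end of the gene (chr1:71585473-71653280) and beside the end of the lncRNA Apol7d. It carried H3K9cr in 8 of 8 libraries. H3K9ac was there in both control libraries, in neither of the 2 WT UUO libraries and in 1 of the 2 ACSS2-/- UUO libraries.

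Acta2, the gene of smooth muscle actin, had its H3K9cr mainly around the start (chr19:34240336-34255585, minus strand), in the region chr19:34253111-34255961. Covered bases of the window were 352 and 1683 in WT control, 1365 and 717 in ACSS2-/- control, 2511 and 1437 in WT UUO and 1930 and 1584 in ACSS2-/- UUO. All 4 UUO libraries lay above 3 of the 4 control libraries, with means of 1866 and 1029 bp (exact permutation p = 0.114, adjusted p = 0.307). Without the other, WT control replicate 2, the groups did not overlap. Within 1 kb of the start the UUO libraries held 1006, 1337, 1059 and 1207 bp and the control libraries 0, 1052, 475 and 363 bp, so that the same control library again lay inside the UUO range.

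**Figure D2:**
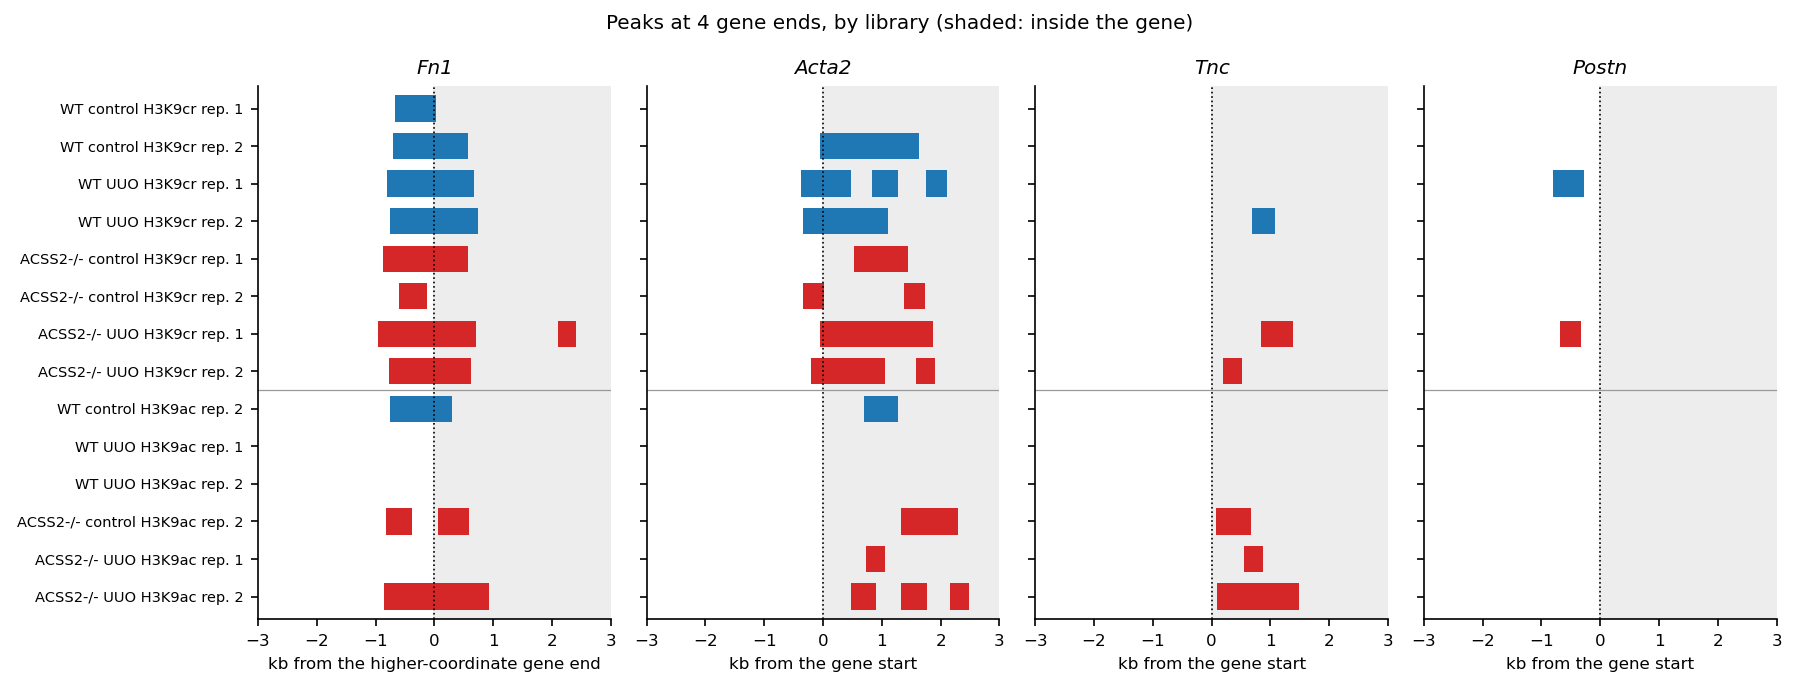
Peaks within 3 kb of 1 end of Fn1, Acta2, Tnc and Postn in each of the 14 libraries (blue WT, red ACSS2-/-); the x axis is distance in kb from the gene start, or for Fn1 from the higher-coordinate end, and the grey side is inside the gene. H3K9cr crosses the Acta2 start in all 4 UUO libraries, while H3K9ac peaks lie inside the gene, and Postn has a peak in 2 libraries only.

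Tnc and Postn, 2 matricellular genes that are little used in healthy kidney, had few and short peaks. At Tnc (chr4:63959785-64047015, minus strand) a region from 81 to 1479 bp inside the start carried H3K9cr in 3 of 4 UUO libraries and in 0 of 4 control libraries, with peaks of 384 bp in WT UUO replicate 2, 553 bp in ACSS2-/- UUO replicate 1 and 336 bp in ACSS2-/- UUO replicate 2. H3K9ac peaks lay in the same region in ACSS2-/- libraries alone, with 587 bp in control, 338 bp and 1383 bp in UUO and 0 bp in the 3 WT libraries. At Postn (chr3:54359267-54391041, plus strand) the single region of the window, chr3:54358459-54358987, lay from 280 to 808 bp before the start and carried H3K9cr in WT UUO replicate 1 (529 bp) and ACSS2-/- UUO replicate 1 (358 bp). The other 12 libraries, all 6 of H3K9ac among them, had no Postn peak, and the 2 that had one are those whose peak names carry another number. Over the whole window neither gene separated control from UUO (exact permutation p = 0.371 for Tnc and 0.429 for Postn).

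Sparc and Dcn, both of which bind collagen, differed widely in coverage. At Sparc (chr11:55394159-55420080, minus strand) all 14 libraries had peaks in the region chr11:55411394-55420638, which runs over the start, and in 13 of them peaks covered bases before the start, the exception being WT UUO replicate 2 of H3K9ac. H3K9cr covered 4536 and 5492 bp in WT control, 9492 and 8541 bp in ACSS2-/- control, 8920 and 6784 bp in WT UUO and 7634 and 3708 bp in ACSS2-/- UUO. Both WT UUO libraries lay above both WT controls and both ACSS2-/- UUO libraries below both ACSS2-/- controls, so that the pooled means were close (6762 and 7015 bp, exact permutation p = 0.886). At Dcn (chr10:97479500-97518163) H3K9cr covered 0, 440, 607 and 0 bp in control and 1185, 359, 0 and 561 bp in UUO libraries, in the order WT, WT, ACSS2-/-, ACSS2-/-, and the groups overlapped. The Dcn region across the lower-coordinate end, chr10:97479336-97480839, had H3K9cr in 3 of 4 WT libraries and in 0 of 4 ACSS2-/- libraries, and H3K9ac in 3 of 4 UUO libraries of either genotype. A region 1011 to 1617 bp outside the same end, chr10:97477883-97478489, split the other way, with H3K9cr in 0 of 4 WT and 2 of 4 ACSS2-/- libraries. Over the whole Dcn window the genotypes overlapped, with H3K9cr means of 292 bp in ACSS2-/- and 496 bp in WT (exact permutation p = 0.629).

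The receptors and the crosslinking enzyme had peaks in nearly every library. Pdgfra (chr5:75151322-75198206, plus strand) carried H3K9cr and H3K9ac chiefly inside the gene, in chr5:75152371-75155206 (13 of 14 libraries) and chr5:75155456-75157169 (14 of 14). H3K9cr over its window was 785 and 2213 bp in WT control, 3733 and 1752 bp in ACSS2-/- control, 3674 and 3771 bp in WT UUO and 3899 and 900 bp in ACSS2-/- UUO (exact permutation p = 0.314). ACSS2-/- UUO replicate 2 stood far below the other UUO libraries. Pdgfrb (chr18:61045127-61085067) had a region just inside its lower-coordinate end in 14 of 14 libraries and 14 regions in all, more than any other member, and its H3K9cr ran from 2080 to 3967 bp in control and from 668 to 5199 bp after UUO (exact permutation p = 0.686). Lox (chr18:52516060-52529867) had 1 peak inside its higher-coordinate end in 8 of 8 H3K9cr and 5 of 6 H3K9ac libraries, with 530 to 981 bp of H3K9cr in control and 619 to 1180 bp after UUO (exact permutation p = 0.6).

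Tagln was the member whose H3K9cr mean after UUO lay furthest below that of control, 1927 bp against 2690 bp, with groups that overlapped (exact permutation p = 0.4). Its window shares bases with Pcsk7, a proprotein convertase, and Sidt2, a lysosomal membrane protein, and several of its regions lay on these neighbours. A region inside Pcsk7, chr9:45919321-45920841, was in 4 of 4 control and 1 of 4 UUO libraries, and another inside Tagln and across the end of Pcsk7, chr9:45931659-45933593, in 3 of 4 and 0 of 4. A region inside Sidt2, chr9:45944310-45945835, was in 0 of 4 control and 3 of 4 UUO libraries. The region across the end of Tagln itself, chr9:45933981-45937026, carried H3K9cr in 8 of 8 libraries.

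The 2 genotypes were then read apart, with 2 libraries against 2, where the exact permutation p cannot go below 0.333 and no call can pass. In WT kidneys 5 of 10 members had more H3K9cr in both UUO than in both control libraries, Fn1, Pdgfra, Pdgfrb, Sparc and Lox, and none had less, where 21.4% of all genes were higher and 26.2% lower. In ACSS2-/- kidneys 2 members were higher, Acta2 and Tnc, and Sparc was lower, where 4.27% of all genes were higher and 53.5% lower. The difference between the genotypes in the UUO effect was tested by exact permutation of genotype within treatment, which cannot go below p = 0.0556. No member reached that limit upwards (0.234% of all genes) or downwards (10.2% of all genes). Sparc had the smallest p of the 10, 0.111, and its UUO effect in ACSS2-/- minus that in WT kidneys was -6183.5 bp.

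Per Mb covered, the H3K9cr comparison looked different. The share was higher after UUO at 10 of 10 members, with a median ratio of 1.99 over the 9 that had a control value, while over all genes the median ratio was 1.15. Fn1, Acta2 and Lox did not overlap, 3 of 10 members (16.1% of all genes were higher on this scale), and 0 of 10 were lower (7.29% of all genes). Fn1 stood at 16.7, 28.4, 22.3 and 9.42 bp per Mb in control and at 33.1, 43.2, 50.1 and 47.5 after UUO, a ratio of 2.26. Acta2 had a ratio of 2.46 and Lox of 1.51. For each of the 3 the exact permutation p was 0.0286, the smallest that 4 libraries against 4 allow, and the adjusted p over all genes was 0.122, so none passed after adjustment.

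**Figure D3:**
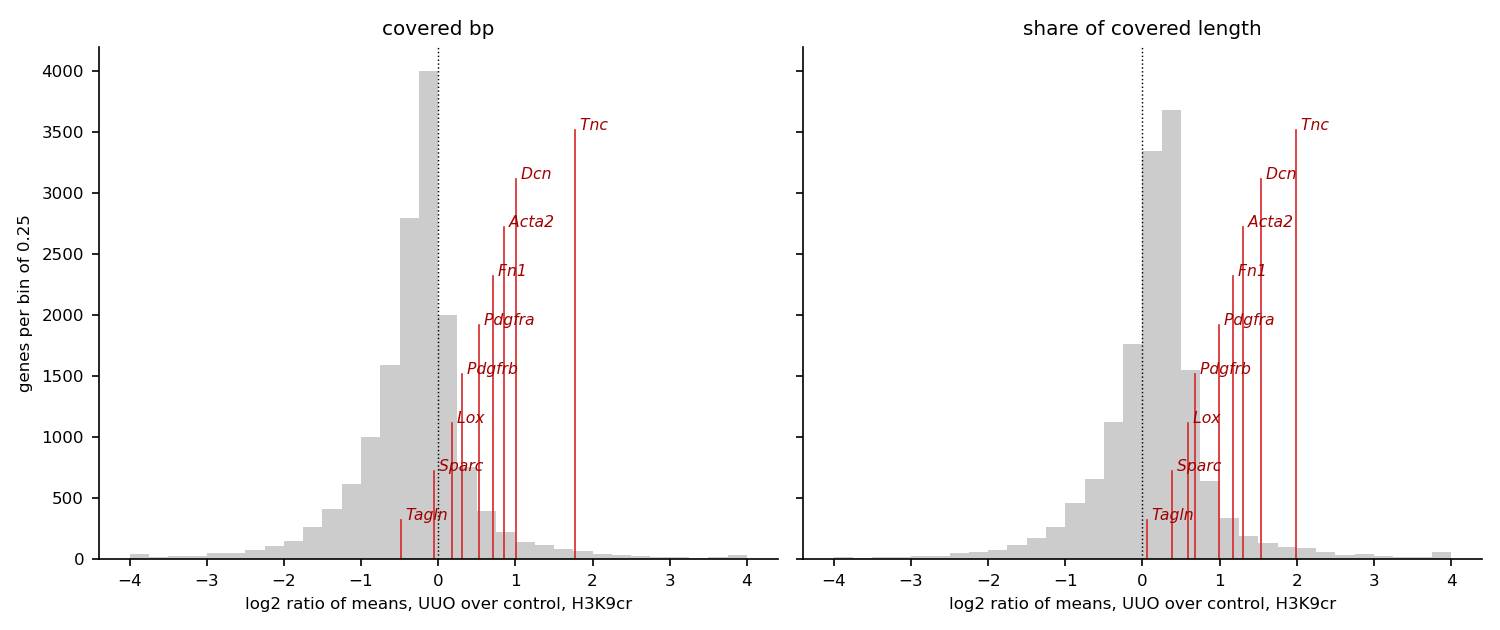
Distribution over all protein-coding genes with a value in both groups of the log2 ratio of mean H3K9cr coverage, UUO over control (grey bars, genes per bin; ratios beyond 4 are in the outermost bins), with 9 members as red lines whose heights only separate the names; left in covered bp, right as the share of the library's covered length. Tagln and Sparc lie below 0 on the left, and all 9 lie above 0 on the right; Postn had no control value.

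For H3K9ac the direction of the UUO difference depended on the scale. In covered bp, over 2 control and 4 UUO libraries the mean was lower after UUO at 7 of 10 members and higher at 2, with a median difference of -485 bp against -996 bp over all genes. Sparc was the 1 member of 10 that was lower in every UUO library (46.9% of all genes were lower), and 0 of 10 were higher (0.354% of all genes). Its H3K9ac was 7344 bp in WT control and 8723 bp in ACSS2-/- control, and after UUO 1677 and 3457 bp in WT and 1698 and 7287 bp in ACSS2-/- (exact permutation p = 0.133, adjusted p = 0.243; the smallest p this design allows is 0.0667). The separation was narrow, since ACSS2-/- UUO replicate 2 lay just under the WT control. As a share, the mean was higher after UUO at 5 members and lower at 4, with a median ratio of 1.09 against 1.13 over all genes. On that scale no member was lower in every UUO library (10.6% of all genes) and Pdgfra was higher (21.8% of all genes). Without ACSS2-/- UUO replicate 2, the H3K9ac library with the most coverage after UUO, 5 members were lower, Fn1, Acta2, Tagln, Pdgfra and Sparc, as were 69.1% of all genes. Without both ACSS2-/- UUO libraries, whose peak names carry another number, 6 were lower, those 5 and Pdgfrb, as were 72.1% of all genes. Without the WT control library, 2 were lower, Tagln and Sparc, as were 78.8% of all genes. Markers of other cells moved with UUO for H3K9ac as well. Per Mb covered, proximal tubule markers summed to 133 to 613 bp after UUO and 770 to 1010 bp in control. For distal nephron markers the sums were 192 to 320 and 632 to 859 bp, and for endothelial markers 158 to 436 and 495 to 614 bp. Leukocyte markers (677 to 1352 and 222 to 344 bp) and injured tubule markers (343 to 536 and 156 to 166 bp) went the other way.

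No H3K9ac peak was found at the contractile genes Acta2 and Tagln in WT UUO kidneys. Acta2 had 578 bp in WT control and 981 bp in ACSS2-/- control, 0 and 0 bp in WT UUO, and 319 and 1195 bp in ACSS2-/- UUO. Tagln had 1617 and 4454 bp in the control libraries, 0 and 0 bp in WT UUO, and 418 and 2153 bp in ACSS2-/- UUO. Both WT UUO libraries had peaks at 4 of the 10 members, where 78.8% and 82.1% of all genes tested had one, whereas the ACSS2-/- UUO libraries had them at 8 and 9, where 80.2% and 87.4% of all genes did. The WT UUO lists were short, at 15988 and 18580 peaks, but that of ACSS2-/- UUO replicate 1 was of similar length at 17271, and the part of list length in the missing peaks was not tested.

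ACSS2-/- was next compared with WT, to see whether loss of the enzyme changed the marks at these genes. For H3K9cr over all 8 libraries, 0 of 10 members were higher (0.672% of all genes) and 0 of 10 lower (0.228% of all genes). The median difference of the members was 8.13 bp, the smallest exact permutation p among them was 0.457 (Lox), and the smallest adjusted p was 1. At an unadjusted p under 0.05 there were 150 of the 16660 genes. The pooled values joined control and UUO kidneys, in which the calls over all genes leaned opposite ways. In control kidneys Sparc was the 1 member of 10 that was higher in both ACSS2-/- libraries and none was lower, where 44% of all genes were higher and 2.92% lower.

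Within UUO, the comparison on which the study turns, H3K9cr of the ACSS2-/- kidneys was lower on average at 8 members and higher at Fn1 and Tnc. Lox alone did not overlap, 1 of 10 members lower (23.3% of all genes) and 0 of 10 higher (6.57% of all genes). It had 1180 and 751 bp in WT and 729 and 619 bp in ACSS2-/- UUO kidneys, so that the nearest libraries all but touched. Fn1 had means of 1495 bp in WT and 1694 bp in ACSS2-/- UUO, and Acta2 of 1974 and 1757 bp. As a share, Sparc and Lox were lower (12.2% of all genes) and Fn1 and Tnc were higher (18.4% of all genes). ACSS2-/- UUO replicates 1 and 2 differed more than the genotypes did at several members, with 5199 and 668 bp at Pdgfrb and 3899 and 900 bp at Pdgfra. Without ACSS2-/- UUO replicate 1, 5 members were lower and 1 higher (55.5% and 11.5% of all genes), and without replicate 2, 3 were lower and 4 higher (28.5% and 29.2% of all genes). Without WT UUO replicate 1, 1 was lower and 1 higher (29.8% and 24.8% of all genes), and without replicate 2, 5 were lower and 1 higher (54.7% and 10.1% of all genes).

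H3K9ac within UUO was higher in ACSS2-/- than in WT kidneys on average at 9 of 10 members, Postn being at 0 throughout. The median difference was 809 bp, against 323 bp over all genes. Acta2, Tagln, Pdgfrb and Tnc did not overlap, 4 of 10 members higher (27.4% of all genes), and 0 of 10 were lower (1.6% of all genes). Pdgfrb had 2146 and 1198 bp in WT and 3291 and 5960 bp in ACSS2-/- UUO, while Acta2, Tagln and Tnc were at 0 in both WT UUO libraries, so no fold is given. As a share the same 4 and Dcn were higher, 5 of 10 (12.8% of all genes), and none was lower (15.7% of all genes). ACSS2-/- UUO replicate 2 held more H3K9ac than replicate 1 at 9 members, 27215 against 9685 bp in all. Without replicate 1 of ACSS2-/- UUO 9 members were higher, as were 75.6% of all genes, and without replicate 2 of WT UUO 7 were, as were 49.9% of all genes. In the UUO libraries of H3K9ac, 7 proximal tubule markers summed to 2355 and 3439 bp in WT and 11830 and 10658 bp in ACSS2-/-. Per Mb covered these sums were 133 and 162 bp against 613 and 345 bp. Slc34a1 alone had 569 and 297 bp in WT and 5906 and 5737 bp in ACSS2-/-. The sums of 7 leukocyte markers overlapped, 11990 and 23986 bp against 13909 and 41718 bp.

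H3K9cr and H3K9ac were compared within the 4 groups. By the rule that every H3K9cr library lies above, or below, every H3K9ac library of its own group, 0 of 10 members were higher for H3K9cr (7.86% of all genes) and 0 of 10 lower (1.25% of all genes). Acta2 had the smallest p of the 10, with means of 1447 bp over 8 and 512 bp over 6 libraries (difference over the groups 868 bp, exact permutation p = 0.0401, adjusted p = 0.167). Fn1 followed, with 1284 and 638 bp (exact permutation p = 0.123). With the 2 marks paired by the replicate number of the labels, Acta2 was higher for H3K9cr in 5 of 6 pairs (exact sign-flip p = 0.0625, adjusted p = 0.334). In ACSS2-/- UUO the numbers in the peak names give other pairs. There H3K9cr replicate 1 and H3K9ac replicate 2 both carry 3, and H3K9cr replicate 2 and H3K9ac replicate 1 both carry 2. In WT UUO kidneys 6 of 10 members had more H3K9cr than H3K9ac in both libraries, Fn1, Acta2, Tagln, Pdgfra, Pdgfrb and Sparc, where 58.9% of all genes did, and in ACSS2-/- UUO kidneys Acta2 alone did, where 21% of all genes did. The control groups held 1 H3K9ac library each. In WT control kidneys Pdgfra, Pdgfrb and Sparc had less H3K9cr than H3K9ac and Tagln and Lox had more (39.2% and 30.9% of all genes), and in ACSS2-/- control kidneys Pdgfra, Pdgfrb, Lox and Tnc had less and none had more (52.2% and 22.7% of all genes).

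As a share, 6 members had a lower mean for H3K9cr than for H3K9ac over the groups, and Pdgfra and Pdgfrb had the smallest p. With marks permuted within groups as separate libraries, these 2 had an adjusted p under 0.05, as did 39.2% of all genes in that direction, while none of the 10 did with a higher share (6.09% of all genes). With the 2 marks paired by the replicate number of the labels, no gene passed after adjustment (smallest adjusted p over all genes 0.0863, 6032 genes at an unadjusted exact p under 0.05). The share of Pdgfra was lower for H3K9cr in every group, 1 of 10 members on that scale (27.3% of all genes), while 0 of 10 were higher (3.48% of all genes). H3K9cr libraries held from 18.8 to 108 bp per Mb, with 18.8, 49.4, 57.8 and 34.1 in control and 82.4, 108, 98.3 and 30.6 after UUO. H3K9ac libraries held 127 and 79.1 in control and 140, 159, 132 and 153 after UUO. The difference over the groups was -64.6 bp per Mb (exact permutation p = 0.00309, the smallest this design allows, adjusted p = 0.0113), although in covered bp it did not pass (p = 0.160, adjusted p = 0.366), with a lower mean for H3K9cr on both scales. Over the 6 same-numbered pairs its share was lower for H3K9cr in 6 (exact sign-flip p = 0.0313, the smallest that 6 pairs allow, adjusted p = 0.0863), as it was at 31.3% of all genes. Pdgfrb had means of 66.9 bp per Mb for H3K9cr and 122 bp per Mb for H3K9ac and groups that overlapped (difference over the groups -48.7 bp per Mb, exact permutation p = 0.0185, adjusted p = 0.0421), and in covered bp it did not pass either (exact permutation p = 0.454, adjusted p = 0.665). Over the pairs its share was lower for H3K9cr in 5 of 6, WT UUO replicate 2 being the other (exact sign-flip p = 0.0625, adjusted p = 0.135). H3K9ac at Pdgfra was also made of longer peaks, the longest in each library measuring 1570 to 2761 bp, against 431 to 1733 bp for H3K9cr.

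Other genes of the same programme were counted by the same rule in covered bp, where 2.3% of all genes were higher and 17.9% lower after UUO for H3K9cr. After UUO, H3K9cr was higher in every library at 2 of 16 tested genes of matrix and crosslinking, Col1a1 (means 3231 and 1144 bp), a chain of type I collagen, and Tgfbi (3093 and 1008 bp), a TGF-beta-induced matrix protein, and at none was it lower. Of 12 contractile genes none was higher, and Lmod1, leiomodin, was lower (2279 and 4311 bp). Of 13 tested fibroblast and pericyte genes S100a4 was higher (4343 and 1150 bp) and Pdgfc, a ligand of the PDGF alpha receptor, lower (2974 and 8104 bp). None of 7 regulators of the SRF and YAP pathways passed in either direction. Each named gene had an exact permutation p of 0.0286 and an adjusted p of 0.141. As a share the counts differed, with 5 of 12 contractile and 5 of 13 fibroblast and pericyte genes higher, 2 of 16 matrix genes and 1 of 7 regulators higher, and none of these lists had a gene lower (16.1% and 7.29% of all genes). Lum and Fap had no covered base in any library.

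In ACSS2-/- against WT kidneys after UUO, H3K9cr was lower in both libraries at 7 of the 13 fibroblast and pericyte genes and higher at 1. The largest differences among these 7 were at Pdgfb (6969 and 10705 bp), Gli1 (2595 and 4020 bp) and Thy1 (669 and 1975 bp), and the 1 that was higher was Cspg4, a pericyte proteoglycan (3358 and 1500 bp). Of the contractile genes 5 of 12 were lower, among them Tpm1 (4389 and 6223 bp) and Flna (5024 and 6364 bp), and none was higher. Of the matrix genes 3 of 16 were lower, with Col1a2, the partner chain of Col1a1, at 233 and 1361 bp, and Bgn, biglycan, was higher at 1546 and 1123 bp. These counts stand beside the 23.3% lower and 6.57% higher of all genes given above, and with 2 libraries against 2 no exact p can go below 0.333. The one-sided counts belong to covered bp, since as a share 2 contractile genes were lower and 2 higher, 4 fibroblast and pericyte genes were lower and 1 higher, and 2 matrix genes were lower and none higher (12.2% and 18.4% of all genes).

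Markers of other cells moved with UUO in the same libraries. Of 7 leukocyte markers 4 had more H3K9cr in every UUO library, Ptprc, Tyrobp, C1qa and C1qb, the last 2 being neighbours with shared windows, and none had less (2.3% of all genes were higher and 17.9% lower). C1qa, a complement gene of macrophages, was at 0 in all 4 control libraries and at 12385, 9210, 10529 and 4469 bp after UUO. The 7 genes summed to 5092, 6310, 8022 and 8159 bp in control and 45931, 34690, 33051 and 18711 bp in UUO libraries, with the 2 WT UUO libraries first, and Cd68 had the most covered bases of them over all 14 libraries. Ptprc, C1qa, C1qb, Lyz2 and Adgre1 were at 0 in all 4 control libraries. Of 7 proximal tubule markers 4 had less H3K9cr in every UUO library (17.9% of all genes), Slc34a1, Slc5a12, Lrp2 and Slc22a6. Cubn, the receptor cubilin, had means of 4715 bp after UUO and 4404 bp in control with groups that overlapped. The sum of the 7 was 36815, 29569, 61620 and 29279 bp in control and 11070, 5951, 8979 and 5798 bp in UUO libraries. Slc34a1, the phosphate transporter, had the most covered bases of them, and all 7 carried peaks in 3 of the 4 control libraries, in keeping with the kidney label.

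Further lists were read by the same rule for H3K9cr after UUO. Kdr, Tek and Cdh5, 3 of 5 endothelial markers, were lower, whereas Pecam1 (means 6333 and 4502 bp) and Emcn (1845 and 842 bp) had higher means after UUO with groups that overlapped. Also lower were Slc12a3 of 5 distal nephron markers and Podxl of 4 podocyte markers, and none of 5 markers of injured tubule separated in covered bp. As a share 3 of these 5, Lcn2, Sox9 and Vcam1, were higher (16.1% of all genes) and none was lower, and the list summed to 98.5 to 130 bp per Mb in control and 187 to 417 bp per Mb after UUO. In ACSS2-/- against WT UUO kidneys 4 of 7 leukocyte markers were lower in H3K9cr, Tyrobp (5452 and 7892 bp), Cd68 (3888 and 6000 bp), Ptprc (1685 and 3026 bp) and Lyz2 (0 and 1196 bp), beside 23.3% of all genes. As a share Tyrobp overlapped, and Ptprc, Cd68, Lyz2 and C1qb were lower, beside 12.2% of all genes. The part of cell composition in the members' values was not tested.

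**Figure D4:**
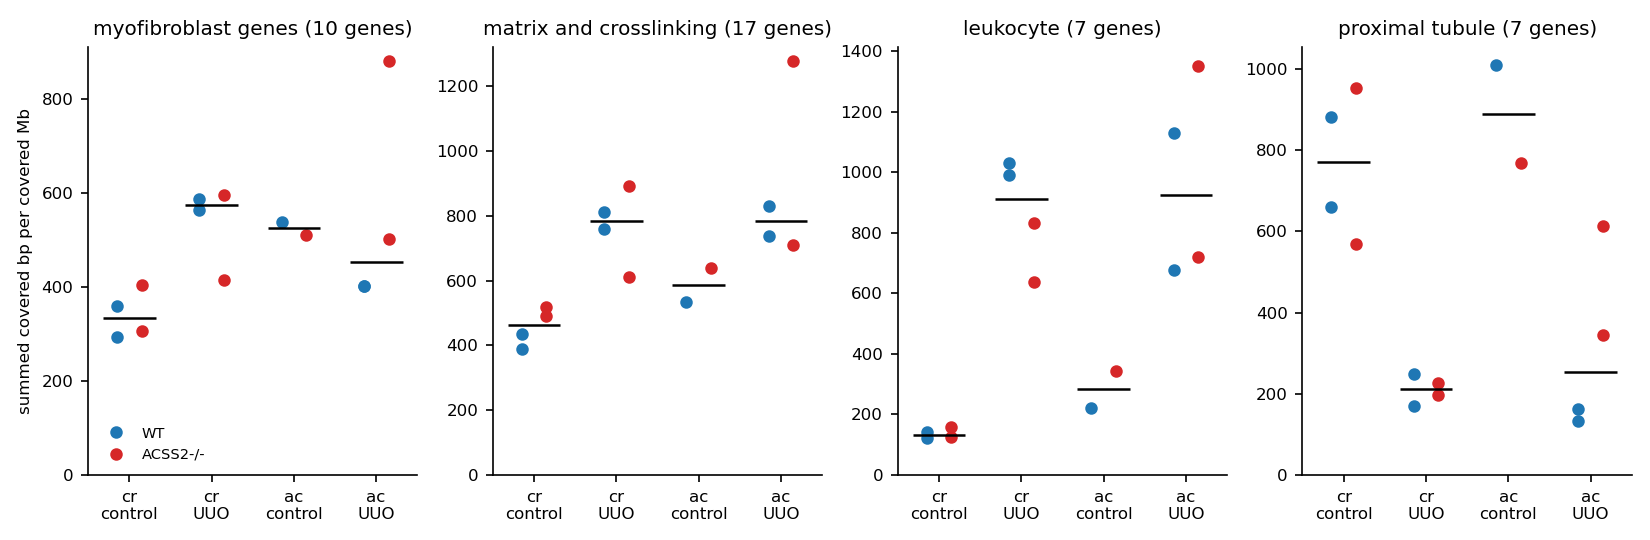
Bases covered in the windows of 4 gene lists, summed over the list and divided by the Mb that the library's peaks cover (points, 14 libraries; blue WT, red ACSS2-/-; line, median). For H3K9cr the myofibroblast genes lie between 295 and 404 in control and between 414 and 597 after UUO, the leukocyte markers between 122 and 159 and between 636 and 1031.

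Summed over the 10 members, H3K9cr covered 12302, 16134, 26113 and 15743 bp in control and 26185, 19729, 23675 and 12190 bp in UUO libraries, which overlapped. Per Mb covered, the same libraries held 295, 360, 404 and 307 bp in control and 588, 564, 597 and 414 bp after UUO, with no overlap and the lowest UUO value, from ACSS2-/- replicate 2, close to the highest control value. This separation was not particular to the members. After UUO and in control, contractile genes summed to 956 to 1156 and 716 to 836 bp per Mb, and matrix genes to 612 to 893 and 390 to 518. Fibroblast and pericyte genes summed to 809 to 984 and 536 to 729. The SRF and YAP regulators overlapped, at 1088 to 1183 and 956 to 1134. For H3K9ac the sums per Mb were 540 and 512 bp in control and 403, 402, 502 and 882 bp after UUO, in the order WT, WT, ACSS2-/-, ACSS2-/-, so 3 of the 4 UUO libraries, both of WT and 1 of ACSS2-/-, lay below the controls and the other ACSS2-/- library above them.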

How the data were processed

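ChIP-seq of H3K9cr (8 libraries) and H3K9ac (6 libraries) from mouse kidneys was analysed. Per the labels and the methods, the authors cleaned the reads, aligned them to mm10 with Bowtie2, removed organelle, poorly mapped and duplicate reads and called peaks with MACS2 for each library; versions and the control for MACS2 are not given in the sources used here. The deposited lists hold other values than counts: start and end positions of peaks, with no height or score, so the authors' test on reads could not be used. Depth is unknown.

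Bases covered by peaks were summed in each gene with 10 kb either side, for 21631 protein-coding RefSeq genes of GRCm38.p6 on chromosomes 1 to 19 and X, and 16660 with a covered base in at least 1 library were tested. Strand, known for 17274 protein-coding genes, came from the RefSeq promoter table; Fn1, Tagln, Pdgfrb, Lox and Dcn are described by gene ends. A call needed groups that do not overlap. P-values are from exact two-sided permutation over libraries, adjusted by Benjamini-Hochberg over all genes tested. Members and lists were chosen with earlier results of these data known. Named genes were the 10 members, their neighbours and at most 4 genes per other list, by the largest difference among those that do not overlap; Pecam1, Emcn, Cubn, Adgre1 and the further leukocyte markers were named after their values were seen. Alternatives were other windows (3 kb either side, gene ends alone, 1 kb around the start), numbers and lengths of peaks, at least 50% of a peak inside, the longest 50% or 15988 peaks, the share, the replicate block (for the 2 marks, from shared samples, the labels' number gives the pairs; same-numbered deviations in UUO correlated at -0.187 in WT and -0.545 in ACSS2-/-), 1 genotype, and leaving out each library. Python 3.11.15 (with numpy 2.4.6 and pandas 2.3.3) was used, and figures were drawn with matplotlib 3.10.9; the code was tested on simulated data and against bedtools 2.31.1.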

Additional observations from a re-analysis of the deposited data

Results flagged for a closer look

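In 28 sets of 4 libraries, a member gene each, the highest or lowest library was compared with the rest by Dixon's ratio (above 0.829), which flags about 1 set in 20 by chance, and 4 stood apart. For Fn1 and Tnc the other 3 libraries were all at 0, where the ratio is 1 whatever the value, so that rate does not apply to them. Fn1 H3K9ac after UUO was 1791 bp in ACSS2-/- replicate 2 and 0 in the other 3 libraries. Pdgfra H3K9cr after UUO was 900 bp in ACSS2-/- replicate 2, where the other 3 held at least 3674 bp. Pdgfrb H3K9cr in control was 3967 bp in ACSS2-/- replicate 1 against at most 2318 bp in the others. Tnc H3K9cr in control was 473 bp in WT replicate 1, from a peak inside the gene far from its start, and 0 in the others.

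At Sparc the effect of UUO on H3K9cr pointed in opposite directions, up in both WT libraries and down in both ACSS2-/- libraries, and the difference of the effects was -6183.5 bp (exact permutation p = 0.111; the smallest this design allows is 0.0556).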

How the results depend on the processing

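Counts of the 10 members that do not overlap depended on the measure. Percentages of all genes are given above for the share, for 1 genotype and for several libraries left out. For the other counts here none is given, so these counts are not read as a difference of the members from other genes. For H3K9cr after UUO, 0 higher became 3 as a share (16.1% of all genes), 1 with each library cut to its longest 15988 peaks and 1 (Fn1) with the replicate block. It became 5 in WT (21.4% of all genes) and 2 in ACSS2-/- libraries (4.27%), and 0 lower became 1 in ACSS2-/- libraries (53.5%). With the replicate block no member separated for ACSS2-/- against WT. The same-numbered libraries deviated together only weakly (correlations from -0.113 to 0.102), so the numbers are not taken as pairs. For H3K9ac after UUO, 1 lower became 3 by longest peak, 0 as a share (10.6% of all genes) and 6 without the lists of other number (chosen after seeing the data, with most genes lower too, as given above). There 0 higher became 1 as a share (21.8% of all genes). For H3K9cr of ACSS2-/- against WT in UUO, 1 lower became 0 by number of peaks, 3 by longest peak, and 2 with the longest 50% of peaks, as a share and with the longest 15988, and 0 higher became 1 near the start and 2 as a share. For H3K9ac there, 4 higher became 1 with the longest 50% of peaks and 2 with the longest 15988. Pdgfra became lower for H3K9cr than H3K9ac by longest peak and as a share (1 member each), and with the 2 marks as 6 same-numbered pairs, a replicate block added after seeing the data, 0 members separated in covered bp and 1 (Pdgfra) as a share. With the numbers crossed in the UUO groups, where same-numbered libraries of the 2 marks deviated in opposite directions, the counts were also 0 and 1. Sparc reached the smallest p for a weaker UUO effect in ACSS2-/- with the longest 50% of peaks, the longest 15988 and as a share (1 member each). The cause of these changes was not tested.

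Leaving out 1 library gave 0 to 1 higher and 0 lower for H3K9cr after UUO, 0 to 1 higher and 1 to 5 lower for H3K9ac, 1 to 4 higher and 1 to 5 lower for ACSS2-/- against WT in UUO for H3K9cr, 4 to 9 higher and 0 lower for H3K9ac, and 0 higher and 0 to 1 lower for the difference of the UUO effect between genotypes (Sparc without ACSS2-/- UUO replicate 1, Lox without ACSS2-/- control replicate 2). It was 0 both ways for H3K9cr of ACSS2-/- against WT over all libraries and for H3K9cr against H3K9ac. Where percentages of all genes are given above for a library left out, they changed as well. These ranges are therefore not read as results about the members alone. Where this left 1 library in a group, the count rests on that library, and where it left a control group of H3K9ac with none, no value within that group was had. Of 540 values of single members under other measures 410 kept direction and call, and 1 called value reversed: Pdgfrb H3K9ac, higher in ACSS2-/- UUO, differed by -24.5 bp within 1 kb of the gene ends. Lists without heights or read numbers limit what small differences can show.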
